A study of Mus musculus with 12 samples.

Results

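Lrmp and 3 genes that lie near it on mouse chromosome 6, Casc1, Bcat1 and Sox5, were followed through 12 libraries of neurons made in culture from mouse embryonic stem cells. They are 4 of the 33560 genes with counts. Lrmp was chosen because earlier results of these data had shown it to be nearly absent from the knockout libraries and from 1 wild-type library. Its own differences are therefore given as a description, with no p-value. Casc1, Bcat1 and Sox5 were chosen by position, to see whether the loss reaches beyond Lrmp.

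The wild-type (WT) and knockout (KO) cells carry the series label Daam1-MIC, and the series title names the deleted part as a microexon of Daam1, a formin that nucleates actin filaments. Each genotype had 3 cell lines, numbered 1 to 3, and the labels do not link a WT line to the KO line of the same number. Each line gave 1 library after 2 h in water (vehicle) and 1 after 2 h in 10 µM Y-27632, an inhibitor of the kinases ROCK1 and ROCK2, both at day 21 in culture, so that the 4 groups held 3 libraries each. The title and design text of the series speak of hippocampus, but every sample label names cultured neurons, and the sample labels were followed. The sample titles call these neurons glutamatergic. Whether the lines of a genotype are separate clones is not given in the sources used here. RNA was poly(A)-selected and sequenced by a stranded protocol, and the libraries held 23253566 to 35012561 counts.

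Lrmp, now also named Irag2, encodes a membrane protein of the endoplasmic reticulum with a coiled coil and a membrane anchor at its C-terminal end. It binds inositol trisphosphate (IP3) receptors, the calcium release channels of that membrane, and is best known from lymphocytes and from taste and tuft cells. Bcat1 is the cytosolic aminotransferase that starts the breakdown of leucine, isoleucine and valine, Sox5 is a transcription factor of the SoxD group with roles in cortical neurons and glia, and Casc1 is linked to the axonemal dyneins of motile cilia.

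In the GENCODE M21 annotation of GRCm38, Lrmp lies on the plus strand at chr6:145115653-145174934, a span of 59.3 kb with 10 transcripts, 4 of them coding. Casc1 lies on the minus strand at chr6:145174834-145211005, so the 3′ ends of Lrmp and Casc1 overlap. They share 101 exonic bases, 2.48% of the exonic bases of Lrmp. Bcat1, at chr6:144993835-145076184 on the minus strand, lies 39.5 kb before Lrmp, and Sox5, at chr6:143828425-144781977 on the minus strand, lies 334 kb before it.

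The promoters of Bcat1 and Casc1, the members nearest to Lrmp on its 2 sides, are shown because both genes were counted in every library, also where Lrmp was at 0. RefSeq (GRCm38.p6) gave a promoter entry for 3 of the 4 members, all but Lrmp. Bcat1 had 2 entries, and the one lying further upstream was used. The first stretch, chr6:145211006-145211133, is the 128 bases between the starts of Casc1 and its divergent neighbour Etfrf1. The second, chr6:145076185-145076407, is the 223 bases before the start of Bcat1. Both are written 5′ to 3′ on the minus strand, and capitals mark each CG, a pair of letters that reads the same on both strands.
Casc1 and Etfrf1: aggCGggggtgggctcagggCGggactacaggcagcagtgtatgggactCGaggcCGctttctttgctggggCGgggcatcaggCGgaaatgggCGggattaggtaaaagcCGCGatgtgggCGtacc
Bcat1: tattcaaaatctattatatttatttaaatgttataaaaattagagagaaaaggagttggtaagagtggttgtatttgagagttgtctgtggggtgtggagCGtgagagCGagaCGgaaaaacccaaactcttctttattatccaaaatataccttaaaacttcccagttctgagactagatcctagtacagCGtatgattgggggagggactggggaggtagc
The first stretch holds 10 CG pairs. Of the 32851 windows of the same length, taken at the same place in each RefSeq promoter entry, 21.5% hold at least as many. The Bcat1 stretch holds 4 CG pairs, and 58.3% of windows of its length hold at least as many. For this stretch the windows began at the most upstream base of each entry. At least 1 CG occurs in 82.8% and 90.7% of windows of the 2 lengths. These counts describe the letters only.

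Some libraries stood apart from the rest, and this bears on the values that follow. Levels are in CPM, counts scaled to the size of the library with edgeR's TMM factors. By the correlation of log2 CPM across genes, the inhibitor library of KO line 3 had a median r of 0.854 with the other 11 libraries, against 0.954 to 0.986 for each of those. It had 0 counts of the Y-linked genes Ddx3y, Eif2s3y and Uty, while the vehicle library of the same line had 836, 559 and 344. The other libraries held 216 to 1855 counts of Ddx3y. These zeros go against the label that puts both libraries in 1 line, and whether they come from 1 line was not tested, so values per line or summed over lines are given without KO line 3 as well where they use it. Vehicle WT line 2 and inhibitor WT line 3 were each other's closest library, with an r of 0.985. Among the fixed marker lists, the 8 glutamatergic markers summed to 212 CPM in the inhibitor library of KO line 3 and to 623 to 870 CPM in the others. Slc17a6, a vesicular glutamate transporter, ranged from 51.7 to 424 CPM, while the cortical markers Slc17a7 and Tbr1 stayed at 0.599 to 2.04 and 0.718 to 2.07 CPM. Gad1, Gad2 and Slc32a1, markers of GABAergic neurons, ranged from 86.7 to 260, 70.5 to 227 and 52.2 to 206 CPM. The other markers of that list were lower. Lhx6 reached 17.956 CPM, and Dlx1, Dlx2 and Dlx5 reached 1.11, 0.509 and 0.262 CPM. Dlx5 was at 3 counts or fewer in 6 libraries. The sum of the list was thus carried by Gad1, Gad2 and Slc32a1. The 7 GABAergic markers summed to 471 to 504 CPM in vehicle WT and to 587 to 666 CPM in vehicle KO, and to 470 to 562 and 220 to 642 CPM in inhibitor WT and KO. These sums did not overlap between the genotypes in vehicle, and their part in the Lrmp difference was not tested. Daam1 itself was at 67.9 CPM in that KO library and at 133 to 188 CPM elsewhere, but counts over a whole gene cannot show the loss of a short exon.

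Lrmp RNA was abundant in 5 of the 6 WT libraries and at or near 0 in all 6 KO libraries. In vehicle, the WT lines 1 to 3 had 591, 145 and 498 counts, and the KO lines had 0, 0 and 2. In inhibitor, the WT lines had 595, 425 and 18 counts, and the KO lines had 0, 1 and 4. Every WT library was above every KO library, and of the 6 WT libraries only inhibitor line 3 was under 100 counts. Because the lines and not the libraries carry the genotype, these 12 values rest on 3 lines of each kind.

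On the CPM scale, Lrmp was at 20.3, 5.65 and 16.3 in the vehicle WT lines, a mean of 14.1 ± 7.58 (SD, n = 3), and at 0.0261 ± 0.0453 (SD, n = 3) in vehicle KO. With inhibitor the WT lines had 19.6, 15.9 and 0.595 CPM, a mean of 12.02 ± 10.1 (SD, n = 3), and the KO lines 0.0521 ± 0.0667 (SD, n = 3). Taking 3 counts as the upper limit that a count of 0 allows, the KO libraries with no Lrmp count could still have held up to 0.110 CPM in vehicle line 1, 0.130 in vehicle line 2 and 0.0938 in inhibitor line 1. In descending order the levels ran from the 2 libraries of WT line 1 through vehicle line 3, inhibitor line 2 and vehicle line 2 to inhibitor line 3, and then to the KO libraries. The KO libraries cannot be ordered among themselves, since they differ by at most 4 counts.

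Pooled over lines, the ratio of WT to KO for Lrmp was 549 in vehicle, from 1234 counts against 2, with an exact 95% interval of 152 to 4537 that covers counting error only. Both KO counts were from line 3, and without that line, with 3 counts over the other 2 KO libraries as the upper limit, Lrmp was at least 243-fold higher in WT. In inhibitor the ratio was 233 (99.5 to 719), from 1038 counts against 5. Without WT line 3 the inhibitor ratio was 350 (149 to 1080), and without KO line 3 it was 791 (142 to 31266), the latter from 1 KO count. In bulk RNA, fewer cells of a type and less RNA per cell cannot be told apart, and a library's Lrmp level can reflect either.

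**Figure D1:**
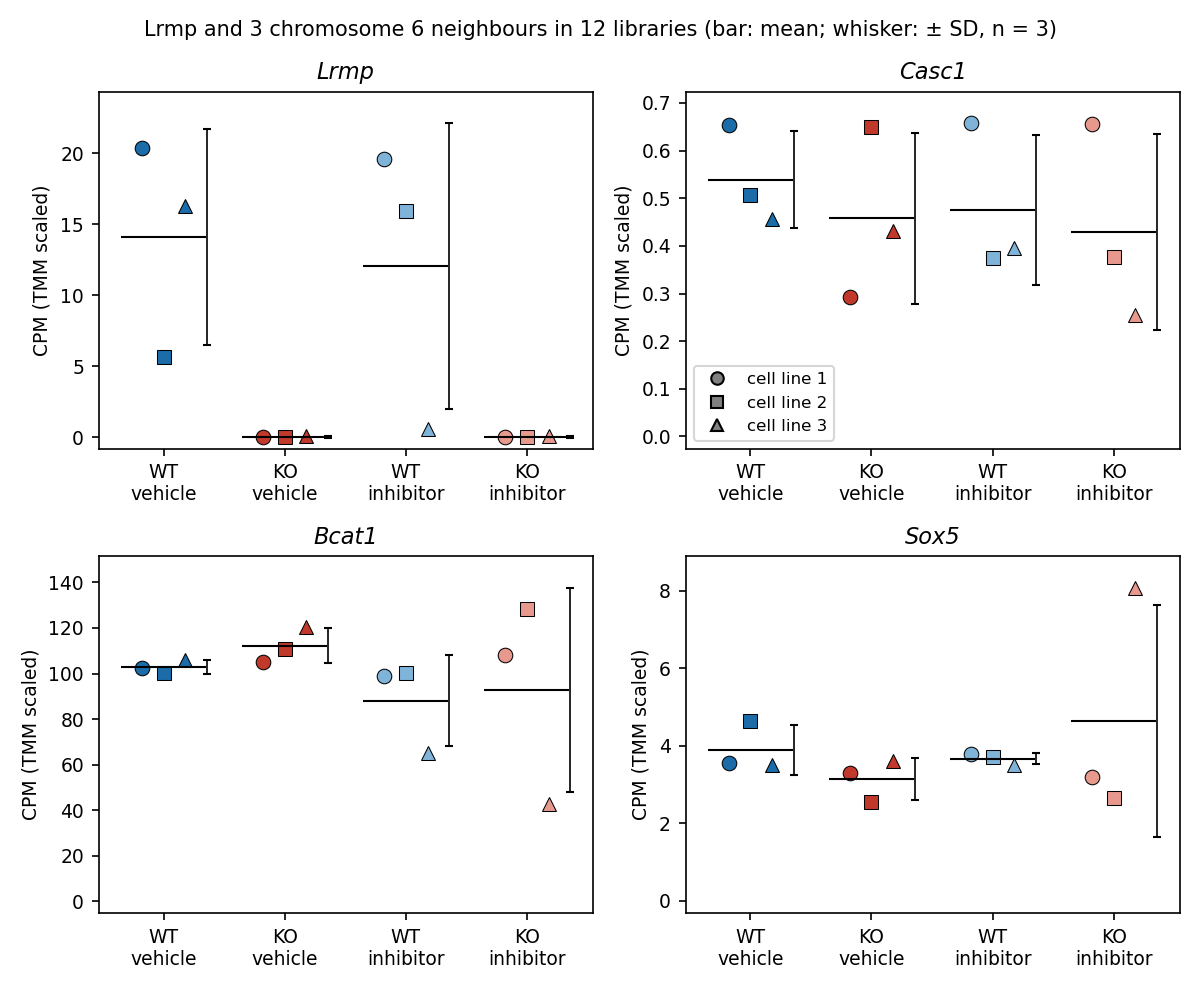
Each point is 1 library, with the level in CPM on the vertical axis of each panel and the 4 groups of 3 libraries on the horizontal axis, for Lrmp, Casc1, Bcat1 and Sox5. Lrmp drops to 0.127 CPM or less in the KO libraries and to 0.595 CPM in inhibitor WT line 3, while the other 3 genes were counted in all 12 libraries.

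The WT lines differed in Lrmp within the same genotype. The inhibitor library of line 1 had 0.962 times the level of its vehicle library (exact 95% counting interval 0.857 to 1.079). In line 2 the inhibitor library was 2.82 times higher (2.33 to 3.43), and in line 3 the vehicle library was 27.3 times higher than the inhibitor library (17.1 to 46.5). The 3 labelled lines therefore moved in no common direction, and with 1 library per line and treatment each ratio compares 2 libraries and not the treatments. These ratios, and the ranks within lines below, rest on the line labels. In WT lines 2 and 3 the deviations of the 2 libraries from their group means correlated at -0.56 and -0.72. Each vehicle library correlated better with an inhibitor library of another number, and whether the labels hold was not tested. Inhibitor WT line 3 still held 14.8 times the pooled level of the 6 KO libraries (5.89 to 41.9), and 4.67 times that of inhibitor KO line 3 (1.54 to 19.0).

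Among the 12131 genes with at least 100 counts in either library of WT line 3, Lrmp had the lowest ratio of inhibitor to vehicle, with a log2 ratio of -4.63. The next lowest gene, Vxn, which promotes neuronal differentiation, had -1.75. In all, 37 genes were lower by more than 1 on the log2 scale and 1405 were higher by more than 1. The 2 libraries thus differed in many genes, mostly upward with inhibitor, and 5 genes rose by more than the 4.63 by which Lrmp fell. Near Lrmp in the same pair, Bcat1 was at 106 and 65.2 CPM, Sox5 at 3.49 and 3.50, and Etfrf1 at 12.1 and 13.7. Bcat1 thus had a log2 ratio of -0.70, close to the 1st percentile of the 12131 genes, -0.78, beside a median of 0.01. None of these 3 neighbours followed Lrmp to near absence, but Bcat1 was among the genes that fell most.

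**Figure D2:**
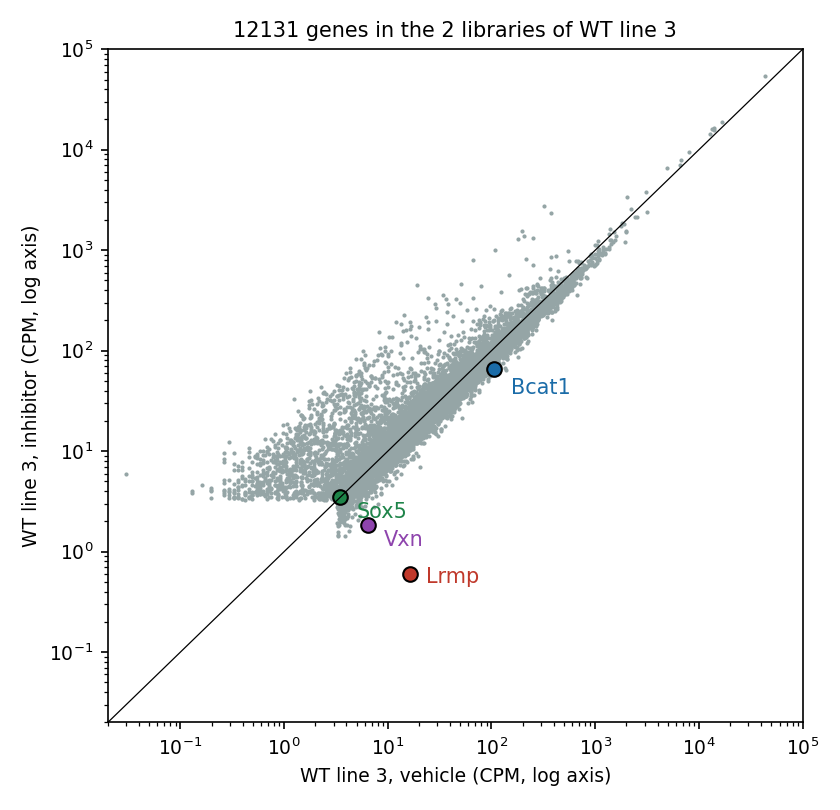
Each grey point is a gene with at least 100 counts in either library of WT line 3, at its vehicle level (horizontal, CPM, log axis) and inhibitor level (vertical, CPM, log axis). A level under 0.03 CPM is drawn at 0.03, which applies to 1 gene. Lrmp lies far below the cloud, while Sox5 lies close to the line, which marks equal levels. Bcat1 lies below the line, with a log2 ratio of -0.70, near the 1st percentile of -0.78.

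The other WT lines gave Lrmp other places, and in the KO lines it had too few counts to be ranked. In WT line 1, 3020 of 11655 genes had a lower ratio of inhibitor to vehicle than Lrmp, whose log2 ratio was -0.06. In WT line 2 only 9 of 11888 genes rose more than Lrmp, at 1.48. In that line 1227 genes were lower with inhibitor by more than 1 on the log2 scale and 90 were higher, so its 2 libraries also differed in many genes. The lowest gene there was Ankrd1, a mechanically regulated gene of muscle and stromal cells, at -5.12.

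Casc1, whose 3′ end overlaps Lrmp, was present at similar low levels in every library. Its vehicle levels were 0.654, 0.506 and 0.457 CPM in the WT lines and 0.293, 0.649 and 0.431 in the KO lines. With inhibitor they were 0.657, 0.374 and 0.397 in WT and 0.656, 0.376 and 0.254 in KO. The groups overlapped, and the counts behind them were 8 to 21. Casc1 was counted both where Lrmp was absent and where it was abundant, so it did not follow Lrmp to near absence. Counts this low cannot show whether Casc1 changed slightly along with Lrmp. Whether reads were assigned by strand in the shared 101 bases is not given in the sources used here.

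Bcat1 was the most abundant of the 4 genes per length, with a mean of 12.7 cRPKM, the authors' corrected form of RPKM, which counts reads per length of transcript, against 2.90 for Lrmp, 0.54 for Sox5 and 0.189 for Casc1. On the CPM scale, its vehicle levels were 102, 100.1 and 106 in WT and 105, 111 and 121 in KO. With inhibitor they were 99.03, 100.2 and 65.2 in WT and 108, 128 and 42.6 in KO. The 2 low values are the inhibitor libraries of WT line 3 and KO line 3, so that Bcat1 was lower in 1 library with little Lrmp and in the library that stood apart. The other 10 libraries lay between 99.03 and 128 CPM, in both genotypes.

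Sox5 was low and even, apart from 1 library. In vehicle it was at 3.54, 4.63 and 3.49 CPM in WT and at 3.29, 2.55 and 3.61 in KO. In inhibitor it was at 3.78, 3.71 and 3.50 in WT and at 3.19, 2.66 and 8.08 in KO. The highest level was in inhibitor KO line 3. There the 6 astrocyte markers summed to 1254 CPM, against 191 to 454 CPM in the other libraries, and the 6 progenitor markers to 923 CPM. The part of these cells in the Sox5 level was not tested.

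No difference between KO and WT passed the test for any of these 3 genes. In vehicle the log2 fold change of KO over WT was 0.13 ± 0.33 (SE) for Bcat1, -0.30 ± 0.39 for Sox5 and -0.24 ± 0.43 for Casc1, each with an adjusted p of 0.999 by edgeR's quasi-likelihood test. In inhibitor it was 0.08 ± 0.33 for Bcat1 (adjusted p = 0.946, edgeR), 0.34 ± 0.38 for Sox5 (adjusted p = 0.856) and -0.15 ± 0.43 for Casc1 (adjusted p = 0.921). Without the inhibitor libraries of WT line 3 and KO line 3, Sox5 turned to -0.36 (edgeR adjusted p = 0.941) and Bcat1 was at 0.25. With the 2 libraries of each line summed, so that each line counted once, the values were 0.12 ± 0.18 for Bcat1, 0.10 ± 0.35 for Sox5 and -0.19 ± 0.30 for Casc1 (edgeR adjusted p = 0.998 for each). Without KO line 3 they were 0.27, -0.35 and -0.05 (edgeR adjusted p = 0.373, 0.458 and 0.956). Intervals of this width do not show that the levels were equal.

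Inhibitor against vehicle gave no call for them either. In WT the log2 fold change was -0.22 for Bcat1, -0.09 for Sox5 and -0.17 for Casc1, with an edgeR adjusted p of 1.00 for each. In KO it was -0.27 for Bcat1, 0.56 for Sox5 and -0.09 for Casc1, with edgeR adjusted p of 0.619, 0.506 and 0.902. All 3 KO values changed sign without the 2 line 3 inhibitor libraries, to 0.08, -0.11 and 0.18. The interaction of genotype and inhibitor was -0.05 for Bcat1, 0.64 for Sox5 and 0.09 for Casc1, with edgeR adjusted p of 0.968, 0.808 and 0.956.

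The wider neighbourhood was read in the same way. Within 1 Mb on each side of Lrmp, 39 genes are annotated, 31 have counts and 13 passed the filter on low counts, among them Lrmp. Of the 12 others, those described here are Sox5, Bcat1, Casc1, Etfrf1, a regulator of electron transfer flavoprotein, Rassf8, the clock repressor Bhlhe41, Sspn of the dystrophin complex, Itpr2, an IP3 receptor, and the noncoding Gm26666, Gm15706 and Gm15704. Of all 12 neighbours, 11 had more than 3 counts in all 12 libraries. The exception was Gm15704, with 2 counts in inhibitor KO line 3. No neighbour that passed the filter was near absent from the KO lines.

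None of the 12 neighbours was called between KO and WT in vehicle, and the background was 0.0% of the 15443 genes tested. Lrmp was 1 of these 15443 genes, so edgeR did not call it either. Whether it was among the genes that DESeq2 called is not reported here. The 0 calls among the neighbours therefore cannot show that the loss is confined to Lrmp. By edgeR, 307 of all genes and 0 of the 12 had an unadjusted p under 0.05, and DESeq2 called 11 of all genes and 0 of the 12. The median log2 fold change of the 12 was 0.20, beside -0.01 for all genes, and the values ran from -0.72 for Itpr2 to 0.88 for Gm15704. Itpr2 was highest in vehicle WT line 2 among the vehicle libraries, at 5.18 CPM, and in inhibitor KO line 3 over all, at 8.14 CPM. Its range in the other 10 libraries was 1.24 to 3.14 CPM.

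For 2 of the 12, Gm15704 and Bhlhe41, all vehicle KO libraries were above all vehicle WT libraries, as for 7.62% of all genes. None of the 12 was lower in KO without overlap, against 4.9% of all genes. Bhlhe41 was at 18.5, 19.7 and 18.9 CPM in vehicle WT and at 20.9, 28.6 and 26.2 in vehicle KO. Gm15704 was at 0.413, 0.351 and 0.555 CPM in WT and at 0.659, 1.12 and 0.667 in KO. They lie 683 kb and 564 kb from Lrmp. Etfrf1, which shares the printed promoter stretch with Casc1, was at 14.5, 10.0 and 12.1 CPM in vehicle WT and 15.6, 12.2 and 14.4 in vehicle KO.

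**Figure D3:**
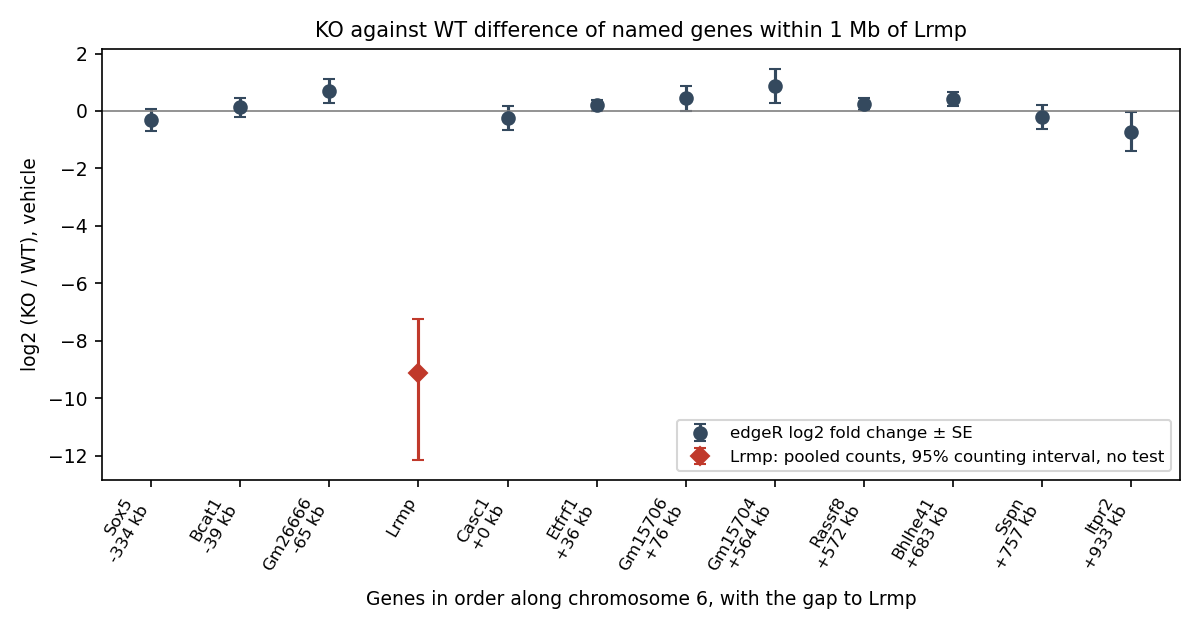
The named genes within 1 Mb of Lrmp are arranged by their order on the chromosome, with the log2 ratio of KO to WT in vehicle on the vertical axis. Dots and bars give edgeR's log2 fold change ± SE for the neighbours named above, which lie between -0.72 and 0.88, and the diamond gives Lrmp from pooled counts with its 95% counting interval, far below 0.

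In the other comparisons the count among the 12 neighbours was also 0, with the same limit on what 0 calls can show. Between KO and WT in inhibitor, the background was 0.0%, edgeR gave 540 genes an unadjusted p under 0.05, and DESeq2 called 18. The neighbours' median was 0.01 beside 0.00 for all genes, and 1 neighbour, Gm15706, was lower in KO without overlap, as were 7.03% of all genes. None was higher without overlap, against 3.51% of all genes. For inhibitor against vehicle the background was 0.0% in WT and 0.0% in KO, with 47 and 1088 genes at an unadjusted edgeR p under 0.05 and 0 called by DESeq2 in either. No neighbour separated the treatments in WT, where 3.04% of all genes were higher and 2.93% lower. In KO, Gm15704 was lower with inhibitor without overlap, as were 5.65% of all genes, and none was higher, against 3.19%. The interaction had a background of 0.0% (185 genes at an unadjusted edgeR p under 0.05, 0 by DESeq2), and the line sums 0.0% of 16090 genes (426 by unadjusted edgeR p, 87 by DESeq2). None of the 12 had an unadjusted p under 0.05 in any of the 6 comparisons. Within 2 Mb, 24 neighbours were tested and 0 were called.

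The pattern of Lrmp was rare among all genes. Of 10840 genes with at least 100 counts in all 3 vehicle WT libraries, 1 gene, Lrmp, had 3 or fewer in all 3 vehicle KO libraries. Of 10553 genes with at least 100 counts in all vehicle KO libraries, 0 had 3 or fewer in all vehicle WT libraries. With inhibitor the counts were 0 of 11213 and 0 of 10623, and Lrmp missed both limits, through the 18 counts of WT line 3 and the 4 counts of KO line 3. Lrmp met these limits by the way it was chosen, so only the small number of other genes is informative.

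Pairs of single libraries were read by a like rule. A gene was taken as present in 1 library and absent from another when it had at least 100 counts in the first and 3 or fewer in the second. The 15 pairs of WT libraries had 0 to 4 such genes. Leaving out the inhibitor library of KO line 3, the 10 pairs of KO libraries also had 0 to 4. The 30 pairs of a WT and a KO library had 1 to 54 with a median of 1. Lrmp was among them in 25 of the 30 pairs and the single such gene in 16. Since Lrmp was chosen for this pattern, its place in these pairs follows from the choice. The 30 pairs also reuse the same libraries and are not separate observations. The 5 pairs without Lrmp are those with inhibitor WT line 3. Against the inhibitor library of KO line 3, the 11 pairs had 17 to 200 such genes, and in none of them was Lrmp, with its 4 counts, included.

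Genes whose level followed Lrmp over the 12 libraries were ranked by Pearson's r of log2 CPM with a prior count of 2, over 13426 genes with a mean of at least 1 CPM. The 5 highest were Emx2, a forebrain homeobox gene, at 0.87, Cd1d1, a lipid antigen presenter, at 0.84, Bmp4, a growth factor, at 0.84, Hgh1 at 0.84, and Ctc1 of the telomere-capping CST complex at 0.83. The libraries share lines, genotype and treatment, so these values are descriptions. The highest level of these genes over their lowest was only 1.20 for Ctc1 and at most 2.35, for Bmp4. None therefore came near absence in any library. Ranked by Spearman's correlation, 0 of the 5 remained among the first 5. The neighbours ranked far lower, with r of 0.17 for Sox5, 0.03 for Bcat1 and -0.37 for Etfrf1.

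Few genes lay on the same side of the 3-count floor as Lrmp in all 12 libraries. Lrmp had 4 counts in inhibitor KO line 3, so a match needed more than 3 counts in that library. Genes absent from every KO library were thereby left out, and the number does not measure how rare such absence was. There were 5 others, none of them on chromosome 6, among them F5, Tmem173, Osr1 and Map7d3, on chromosomes 1, 18, 12 and X. The highest counts of these in any library were 51, 26, 21 and 8. With a floor of 10 counts the list was Gm27000, Fap, Hoxc8, Eng and Gpat2. Gm27000 had 1207 counts in inhibitor WT line 3, where Lrmp had 18, and Fap had 169, so these genes did not share the low value of that library.

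Markers of other cell types were read beside Lrmp. The 7 lymphoid markers summed to 0.0313 to 0.695 CPM in all libraries, and Cd79b, Cd3e and Rag1, which mark B and T cells and their precursors, had 3 counts or fewer in all 12. Ptprc, a marker of all blood leukocytes, was above 3 counts in all but 3 libraries and reached 12, Cd79a reached 8 counts and Ikzf1 4. Of the 6 tuft and taste markers, Gnat3 was at 0 in all 12 libraries, Pou2f3 reached 4 counts, Trpm5 8, Plcb2 11 and Avil 53 (1.69 CPM). Plcb2 was at 3 counts or fewer in 1 library and Avil in 3. The sum of the list was carried by Dclk1, a kinase that neurons also express, at 103 to 446 CPM.

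The 6 mesenchymal markers, among them Col1a1 and Col3a1 of fibrillar collagen, are given by their sum, with no test. It was 395, 1192 and 115 CPM in the vehicle WT lines and 42.6, 29.4 and 113 in the vehicle KO lines. With inhibitor it was 333, 287 and 789 CPM in WT and 59.8, 83.7 and 66.8 in KO. Every WT library was above every KO library, as for Lrmp, but the vehicle libraries of WT line 3 and KO line 3 were nearly equal. Among the WT libraries the order differed: the highest sums, in vehicle line 2 and inhibitor line 3, went with the lowest 2 Lrmp levels, 5.65 and 0.595 CPM, and the lowest sum, in vehicle line 3, went with 16.3 CPM. The part of mesenchymal cells in the Lrmp difference was not tested.

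**Figure D4:**
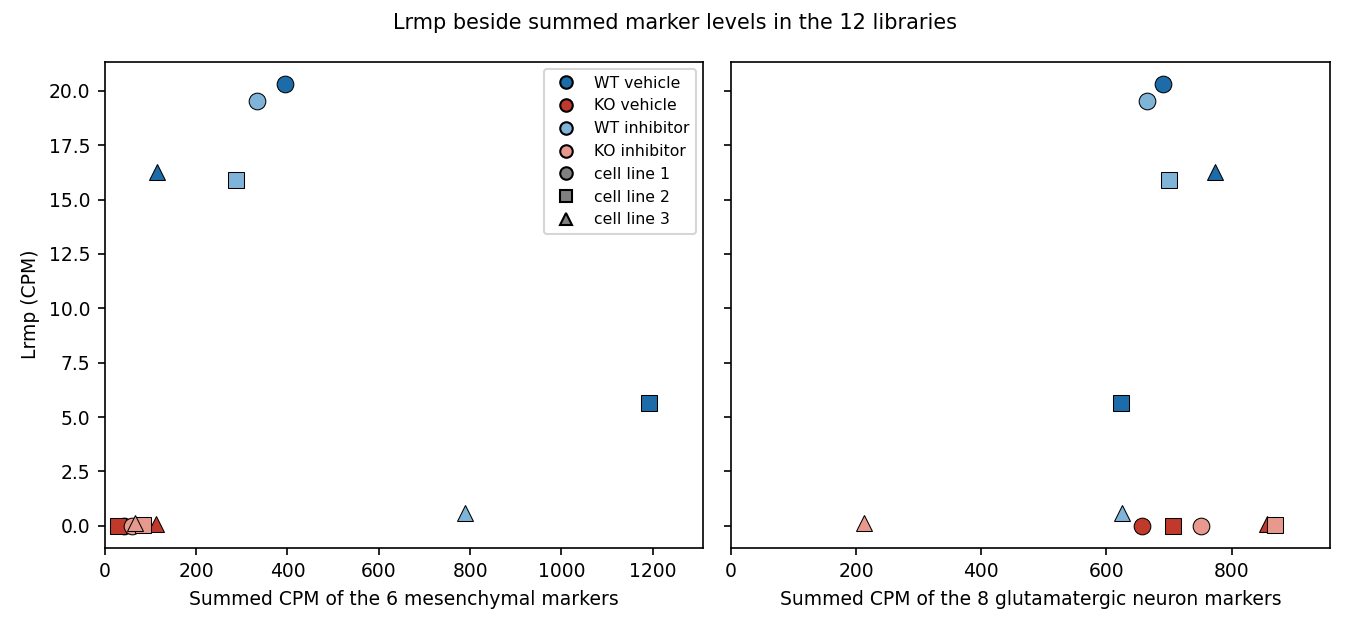
Each point is 1 library, with the CPM of Lrmp on the vertical axis and the summed CPM of the 6 mesenchymal (left) or 8 glutamatergic (right) markers on the horizontal axis; colours give the group and shapes the line. Lrmp is high in WT libraries with mesenchymal sums from 115 to 395 CPM, and the 2 WT libraries with the highest sums have the lowest Lrmp levels among WT.

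The partners of the IRAG family, to which Lrmp belongs, were measured as a list of IP3 receptors, cGMP kinases and soluble guanylate cyclase. All 10 members passed the filter, and edgeR and DESeq2 called 0 of them in each of the 6 comparisons, with at most 2 at an unadjusted edgeR p under 0.05, the 2 in inhibitor, where 3.50% of all genes were. Gucy1b1, a subunit of the soluble guanylate cyclase, was the most abundant, at 84.7 CPM on average. Mrvi1 (Irag1), the closest relative of Lrmp in the list, was scarce, with 1 to 19 counts in a library. Its vehicle levels were 0.421 ± 0.185 CPM in WT and 0.159 ± 0.0134 in KO (SD, n = 3 each), and over the summed lines its log2 fold change was -1.60 ± 0.31 (SE, edgeR adjusted p = 0.596). Itpr1, the main neuronal IP3 receptor, was at -0.19 ± 0.22 in vehicle (edgeR adjusted p = 0.999). Prkg1, the cGMP kinase, was at 0.12 ± 0.33 in vehicle and -1.06 ± 0.34 in inhibitor (edgeR adjusted p = 0.999 and 0.856).

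Other lists around the 4 members held 0 called genes too, by edgeR and by DESeq2, in each of the 6 comparisons. They were the HCN channels and their partners, since Lrmp is known to modulate HCN4 (6 of 6 tested), the LINC complex that ties the nucleus to the cytoskeleton (7 of 7), the breakdown of branched-chain amino acids around Bcat1 (16 of 16), SOX factors (8 of 9), and motile cilium genes around Casc1 (10 of 13, or 11 in the line sums). Their medians in vehicle were 0.11 for the HCN list, -0.14 for LINC, 0.12 for amino acid breakdown, -0.27 for SOX factors and 0.11 for cilium genes, beside -0.01 for all genes. In inhibitor the SOX factors had a median of 1.23 beside 0.00 for all genes, with 5 of 8 at an unadjusted p under 0.05, the most for any list, beside 3.50% of all genes. Of these 5, Sox11 was lower in KO, at -0.62 ± 0.24 (SE, edgeR adjusted p = 0.856), and the others were higher. Sox6, which pairs with Sox5, was at 2.15 ± 0.75 (SE, edgeR adjusted p = 0.856), with a KO level of 4.80 ± 5.71 CPM (SD, n = 3). That spread exceeds the mean, and the progenitor and astrocyte markers named above were high in inhibitor KO line 3. The part of these cells in the levels of Sox6 and the other SOX factors was not tested. In the comparison of vehicle libraries Sox6 was at -0.38 ± 0.73 (SE, edgeR adjusted p = 0.999).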

How the data were processed

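The 12 tables held counts and cRPKM per gene, as the authors deposited them; RPKM values here are the authors' mappability-corrected cRPKM, used as deposited. Each table listed 36902 genes, of which 3342 were NA and left out. The build was mm10, per the submitters' processing notes; the aligner, annotation and use of strand are not given in the sources used here. Gene positions came from GENCODE M21. CPM was scaled by TMM factors. Tests were edgeR 4.0.16 (R 4.3.3) quasi-likelihood F tests with TMM scaling and its default expression filter, with 12 libraries in 1 fit, at an adjusted p of 0.05 (Benjamini-Hochberg over all genes tested). Fits with DESeq2 1.42.0, other scalings, no filter, a replicate block and libraries left out were alternatives. Nothing in the labels says that the lines came from separate derivations, so p-values measure the spread between these lines and libraries. The biological coefficient of variation was 0.411. On simulated counts for vehicle KO against WT (15292 genes, 50 changed at each size), the share called was 12% for a log2 change of 1, 76% for 2 and 100% for 3 and 4, with 7 false calls. The simulation gave all genes 1 common spread, changed only genes above 1 CPM and held no library that stood apart. The real vehicle comparison called 0 of 15443 genes, Lrmp among those fitted, so these shares do not carry over to the real counts. The members and lists were chosen with earlier results of these data known. Named were the 4 members, genes within 1 Mb of Lrmp that passed the filter (1 is counted but not reported here), and the 5 genes most like Lrmp; others, including those named from the lists, were chosen after their values were seen. Vehicle and inhibitor libraries pair by the labelled line, which the Y-linked counts of KO line 3 go against. Their deviations from the group means correlated at 0.41, -0.56 and -0.72 in WT lines 1 to 3 and at -0.18, 0.56 and -0.38 in KO lines 1 to 3.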

Additional observations from a re-analysis of the deposited data

Results flagged for a closer look

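Bhlhe41, a repressor of the circadian clock and a neighbour of Lrmp, was flagged because the sign of its change with inhibitor was opposite in the 2 genotypes. The flag came from a search of the genes within 1 Mb that passed the filter. How many of all genes would meet the same rule was not counted. It was higher with inhibitor in all 3 WT lines, at 18.5 and 19.0, 19.7 and 19.8, and 18.9 and 20.5 CPM for vehicle and inhibitor, and lower in all 3 KO lines, at 20.9 and 19.3, 28.6 and 26.4, and 26.2 and 11.5 CPM. The mean changes differed by 6.91 CPM, and the value of 11.5 CPM is from the KO line 3 library that stood apart. Without KO line 3, an alternative chosen after seeing the data, the mean changes differed by 2.60 CPM. The WT changes were small beside their error, with a log2 fold change of 0.05 ± 0.25 (SE, edgeR). The test of the difference, the interaction of genotype and inhibitor, gave a log2 value of -0.46 ± 0.35 (SE, edgeR unadjusted p = 0.223, adjusted p = 0.808). Opposite movement is therefore not established.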

How the results depend on the processing

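Over all genes, edgeR's 0 calls became 4 for KO against WT in vehicle without the line 3 inhibitor libraries of WT and KO, and 2 for the line sums with no filter on low counts. DESeq2 called 11 in vehicle, 18 in inhibitor and 87 for the line sums. No neighbour within 1 Mb was called under any alternative, and the smallest adjusted p over them was 0.164, for Bhlhe41 between inhibitor and vehicle in KO without inhibitor KO line 2. Without the line 3 inhibitor libraries of WT and KO, log2 values turned to -0.36 for Sox5 between KO and WT in inhibitor, to 0.075 for Bcat1, -0.11 for Sox5 and 0.18 for Casc1 between inhibitor and vehicle in KO, and to 0.12 for Bcat1 and -0.051 for Sox5 in the interaction; the cause was not tested.

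With each library left out in turn, the log2 values of KO against WT ranged in vehicle from -0.57 to 0.0010 for Casc1, and in inhibitor from -0.23 to 0.42 for Bcat1, -0.32 to 0.61 for Sox5 and -0.59 to 0.15 for Casc1. For inhibitor against vehicle they ranged from -0.16 to 0.030 for Sox5 in WT, and in KO from -0.58 to 0.075 for Bcat1, -0.11 to 0.83 for Sox5 and -0.53 to 0.24 for Casc1. The interaction ranged from -0.36 to 0.30 for Bcat1, -0.022 to 0.92 for Sox5 and -0.35 to 0.42 for Casc1. With each line left out, the line sums ranged from -0.034 to 0.27 for Bcat1, -0.35 to 0.32 for Sox5 and -0.31 to 0.041 for Casc1. None of these values was called.

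A replicate block by cell line, or by replicate number, left 0 genes called in each comparison it was fitted to and changed no call. Same-numbered WT and KO lines are different lines, and their deviations correlated at -0.35, -0.64 and 0.18 in vehicle and at 0.38, 0.65 and 0.80 in inhibitor. At a floor of 10 counts, Casc1 was at or under it in 3 libraries, against 0 at 3 counts. Casc1 rests on 8 to 21 counts a library and Lrmp in KO on 0 to 4, so depth limits how finely either can be compared.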
